A study of Mus musculus with 6 samples.

Results

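The subject is a panel of 10 inflammatory signalling genes of mouse aortic vascular smooth muscle cells (VSMCs), the muscle cells of the artery's middle layer. They were taken by symbol: the cytokine genes Il6, Il11, Lif, Il33 and Csf1, the NF-kB subunit genes Nfkb1 and Relb, the NF-kB inhibitor genes Nfkbia and Tnfaip3, and the prostaglandin synthase gene Ptgs2. All 10 were found, each on 1 row, among 22482 protein-coding genes. The cells were C57BL/6 cells grown in serum-containing medium, and RNA depleted of ribosomal RNA was sequenced as stranded libraries 48 h after adenovirus was added. The labels place 3 libraries (titled ADV) in a Myocd knockdown group and 3 (titled Ctrl) in a group with a negative control virus, while the design text calls the latter wildtype, so whether both groups carried virus is not certain. No label says whether the libraries of a group are separate cultures, so the spread behind the p-values may be technical.

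IL-6, IL-11 and LIF belong to 1 cytokine family whose receptors share the signal-transducing chain gp130, encoded by Il6st, and act through Jak kinases and Stat3. NF-kB is a family of dimeric transcription factors held inactive by IkB proteins, of which Nfkbia encodes IkB-alpha. Signals from cytokine and Toll-like receptors destroy IkB, the freed dimers switch on cytokine genes and Ptgs2, and they also switch on Nfkbia and Tnfaip3, whose products shut the signal down again. In the vessel wall such genes are known from inflamed and injured arteries, where smooth muscle cells can be a source of IL-6 and of prostaglandins.

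The upstream DNA of the genes is shown first, because NF-kB acts through kB sites in promoters and myocardin through SRF at CArG boxes. RefSeq promoter windows (GRCm38.p6, 250 bases before to 50 bases after a transcript start) were matched for 8 of the 10 genes, in 11 windows. Both strands were searched for the kB consensus, the CArG box, the AP-1 motif TGANTCA and the CRE motif TGACGTCA. A kB match lay in 5 of the 11 windows, against 8.46% of all 32851 windows of that length. These were the windows of Il6, Lif, Csf1, Nfkbia and the first of Tnfaip3, which held 2. An AP-1 match lay in 4 of 11 (Il6, Lif, the second window of Il11 and the first of Tnfaip3), against 7.81% of all windows. No CArG match and no CRE match lay in any of the 11, against 1.63% and 1.79% of all windows. At shares this low most sets of 11 windows would hold no match, so this tells little about the panel. The shares describe letters and not binding, and a window without a match says nothing about DNA outside it. The panel was picked around NF-kB signalling, and some of the windows belong to the same gene. Its kB share beside that of all windows is therefore no test of enrichment. The 5 windows below belong to Il6, to the inhibitor genes Nfkbia and Tnfaip3, and to Il33 and Ptgs2, the genes that passed the test between the groups. Capitals mark kB and AP-1 matches, written 5' to 3' along the gene's strand.
Il6, chr5:30012864-30013163, plus strand: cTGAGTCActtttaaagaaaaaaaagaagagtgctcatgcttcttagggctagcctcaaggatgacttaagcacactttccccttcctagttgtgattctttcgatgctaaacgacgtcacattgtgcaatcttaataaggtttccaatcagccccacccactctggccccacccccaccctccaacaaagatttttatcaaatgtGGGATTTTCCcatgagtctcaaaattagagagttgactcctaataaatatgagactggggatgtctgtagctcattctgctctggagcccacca
Nfkbia, chr12:55492598-55492897, minus strand: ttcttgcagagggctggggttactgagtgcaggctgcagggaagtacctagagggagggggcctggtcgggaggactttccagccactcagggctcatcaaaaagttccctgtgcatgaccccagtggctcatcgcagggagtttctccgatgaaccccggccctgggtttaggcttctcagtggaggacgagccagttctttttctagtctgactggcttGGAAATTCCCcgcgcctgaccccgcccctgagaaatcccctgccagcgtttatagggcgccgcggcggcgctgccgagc
Tnfaip3, chr10:19015361-19015660, minus strand: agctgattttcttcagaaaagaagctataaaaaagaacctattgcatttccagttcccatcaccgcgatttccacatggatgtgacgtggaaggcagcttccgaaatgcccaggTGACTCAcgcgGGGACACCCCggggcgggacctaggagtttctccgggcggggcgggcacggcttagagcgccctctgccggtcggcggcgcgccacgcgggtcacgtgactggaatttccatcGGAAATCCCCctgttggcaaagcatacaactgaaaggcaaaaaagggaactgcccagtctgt
Il33, chr19:29924863-29925162, plus strand: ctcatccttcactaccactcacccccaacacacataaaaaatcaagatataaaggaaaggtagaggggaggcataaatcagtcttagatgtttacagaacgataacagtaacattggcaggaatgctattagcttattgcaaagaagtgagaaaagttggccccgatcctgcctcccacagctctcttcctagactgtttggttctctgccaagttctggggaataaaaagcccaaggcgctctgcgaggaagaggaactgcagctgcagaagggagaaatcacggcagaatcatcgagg
Ptgs2, chr1:150099781-150100080, plus strand: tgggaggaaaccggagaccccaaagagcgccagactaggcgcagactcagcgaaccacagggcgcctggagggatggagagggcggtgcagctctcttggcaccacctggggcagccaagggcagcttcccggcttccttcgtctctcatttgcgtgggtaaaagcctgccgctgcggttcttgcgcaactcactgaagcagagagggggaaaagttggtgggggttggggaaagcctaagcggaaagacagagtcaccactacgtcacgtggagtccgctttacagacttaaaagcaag
In Il6 the kB letters GGGATTTTCC began at position -44 from the RefSeq start and the AP-1 letters TGAGTCA at -249. In Nfkbia the match GGAAATTCCC, on the other strand, began at -29. In Tnfaip3 GGGACACCCC began at -125 and GGAAATCCCC, on the other strand, at -12. The windows of Il33 and Ptgs2 are shown without capitals because neither held a kB, AP-1, CArG or CRE match.

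Each library held between 7528155 and 9793785 fragments of protein-coding genes. The level of Myocd was opposite to the labels. Its FPKM (fragments per kilobase of transcript, scaled for depth) was 132, 130.1 and 146 under the knockdown label, against 0.0355, 0 and 0.125 under the control label (log2 fold change 9.87, SE 0.27, limma adjusted p = 1.11e-05). Groups are therefore called by their labels throughout, and "rose" means higher under the knockdown label. Smooth muscle markers were partly missing: Myh11 reached at most 0.0846 FPKM, Cnn1 at most 0.353 and Lmod1 at most 0.825. Tagln ran from 0 to 8.69 FPKM and Myl9 from 0.744 to 9.81. Des (107 to 127 FPKM) and Smtn (51.3 to 64.7) were present in every library, and Acta2 ranged from 63.1 to 346. The mean of Acta2 was 340.2 FPKM under the knockdown label against 67.2, which makes up most of the difference in the following sum. The sum of 8 smooth muscle markers was 518 to 549 FPKM under the knockdown label and 222 to 248 under the control label, with 4 of 6 tested markers called. That of 7 endothelial markers was 1.298 to 2.38 and 0.468 to 1.04 FPKM, with 1 of 1 called. The called marker was Vwf, at 0.102 to 1.61 FPKM over all libraries. Every other endothelial marker stayed at or below 0.429 FPKM and was too low to test. Krt19 (225 to 273 FPKM) and Msln (73.1 to 86.9 FPKM), listed as markers of mesothelial cells, were high in every library, while the other markers of that list, Upk3b and Wt1, reached at most 0.5605 and 1.05 FPKM; the list summed to 302 to 325 and 320 to 351 FPKM. The 5 fibroblast markers summed to 59.5 to 70.7 and 59.7 to 70.2 FPKM. Of 9 macrophage and leukocyte markers found, Ptprc, Itgam, Csf1r and Tyrobp were at most 0.0277 FPKM. Fcer1g, Cd52 and Lyz2 reached at most 0.187, 0.565 and 1.03 FPKM. Cd68 was between 2.02 and 5.51 FPKM and Cd14 between 15.9 and 21.7. The list's sum was 20.6 to 24.5 FPKM in the libraries labelled knockdown and 22.4 to 27.1 in the others. The part of these markers in the differences below was not tested. In bulk RNA, fewer cells of a type and less RNA per cell cannot be told apart.

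Of the 10 genes, 2 rose in the libraries labelled knockdown, Il33 and Ptgs2, by 26.6% and 23.2% of the control mean. None fell, 7 did not pass, and Il11 was too low to test. The 2 calls among 9 tested genes stand beside 3.44% of all 11612 tested genes called in either direction, 1.83% upward and 1.61% downward. The median log2 fold change was 0.13 over the 9 genes and -0.0098 over all tested genes. The members, and the wider lists below, were chosen with earlier results of these data known. Comparisons of them with all genes therefore describe the choice and do not test it. By FPKM 4 of the 9 (Il6, Il33, Nfkbia and Ptgs2) had their 3 highest libraries under the knockdown label, and 0 had their 3 lowest there. Over all tested genes 28.9% were separated in this way, 13.3% upward and 15.6% downward. EdgeR on recovered fragments called 3 of the 9, adding Tnfaip3, beside 9.95% of 11563 genes (5.45% upward, 4.50% downward). DESeq2 called 2, beside 7.53% of 9523 genes (4.15% upward, 3.38% downward). An exact permutation test on 1 gene cannot reach 0.05 with 3 against 3 libraries: its two-sided p was 0.1, the smallest possible, for Il6, Il11, Il33, Nfkbia and Ptgs2.

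**Figure D1:**
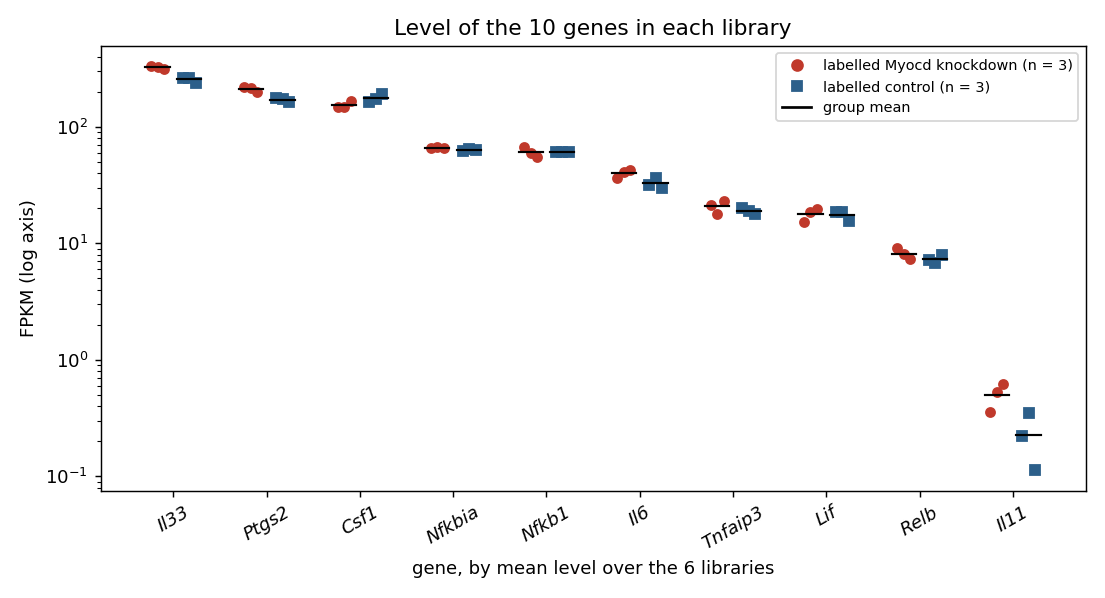
FPKM (log axis) of the 10 genes in each of the 6 libraries, ordered by mean level, with a bar at each group mean. Il33 (240.0 to 332 FPKM) is the highest and Il11 (0.112 to 0.616) the lowest, and only Il6, Il11, Il33, Nfkbia and Ptgs2 have groups that do not overlap.

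The levels of the 10 genes differed widely per unit of transcript length. Il33 led at a mean of 289 FPKM over the 6 libraries, followed by Ptgs2 (191), Csf1 (166), Nfkbia (64.6), Nfkb1 (60.9), Il6 (36.5), Tnfaip3 (19.9), Lif (17.7), Relb (7.70) and Il11 (0.364). The ranges of Ptgs2 and Csf1 overlapped, as did those of Nfkbia and Nfkb1 and those of Tnfaip3 and Lif. All other neighbours in this order were separated in every library. The alarmin Il33 was thus several times as abundant as Il6 in these cells in both groups.

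Il6, the founding cytokine of its family, stood at 36.7, 41.3 and 42.9 FPKM under the knockdown label, against 32.0, 36.0 and 29.99 FPKM under the control label. Every library of the first group was above every library of the second, though knockdown 1 exceeded control 2 by less than the spread within either group. Mean levels were 40.3 ± 3.23 and 32.7 ± 3.07 FPKM (SD, n = 3 each), and the log2 fold change was 0.30 (SE 0.09, 95% interval 0.10 to 0.51, limma adjusted p = 0.104). It did not pass there, and edgeR on 302 to 386 fragments per library gave 0.32 (adjusted p = 0.0505). Il6 (ENSMUSG00000025746) lies on the plus strand of chromosome 5, from 30013114 to 30019975 in RefSeq. The authors' locus for it runs from 29704549 to 30089046 and is far wider.

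Lif, which shares gp130 signalling with Il6, stood at 15.3, 18.7 and 19.8 FPKM under the knockdown label, against 18.5, 18.4 and 15.4 FPKM under the control label. The groups overlapped almost fully, with the lowest libraries being knockdown 1 and control 3. The log2 fold change was 0.035 (SE 0.12, 95% interval -0.24 to 0.31, adjusted p = 0.886). The upper end of the interval is just below the estimate for Il33 (0.34) but within the interval for Il33 (0.22 to 0.46). The interval for Lif also holds the estimates for Ptgs2 and Il6 (0.30 each), so a rise of that size in Lif is not excluded. Without both replicate 3 libraries the estimate turned to -0.13 (adjusted p = 0.555).

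Il11, the third family member of the panel, was at the edge of detection. It was read by 3, 6 and 6 fragments in the libraries labelled knockdown and by 2, 3 and 1 in those labelled control, or 0.357, 0.531 and 0.616 against 0.220, 0.348 and 0.112 FPKM. The groups do not overlap, but the difference rests on a few fragments per library and the gene failed the filter of 0.5 FPKM in 3 libraries. EdgeR without a filter gave an adjusted p of 0.323. A difference in Il11 was not detectable at this depth.

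Il33, a nuclear alarmin of the IL-1 family that is released from damaged cells, rose. It stood at 332, 327 and 311 FPKM under the knockdown label, against 263, 263 and 240.0 FPKM under the control label. The lowest library labelled knockdown lay clearly above the highest control. Mean levels were 323 ± 11.3 and 255 ± 13.3 FPKM (SD, n = 3 each), a 1.27-fold difference (log2 0.34, SE 0.05, 95% interval 0.22 to 0.46, limma adjusted p = 0.0192). EdgeR on 6399 to 8505 fragments per library gave 0.35 (adjusted p = 0.000174). The limma call ended without knockdown 1 (adjusted p = 0.0759), knockdown 2 (0.0859), control 1 (0.0649) or control 2 (0.0683), and without limma's intensity trend (0.075), with the log2 fold change between 0.30 and 0.37 in all fits with a library left out. Il33 (ENSMUSG00000024810) lies on the plus strand of chromosome 19, from 29925113 to 29960718 (RefSeq, GRCm38).

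Csf1, the growth factor that keeps macrophages alive, was the one cytokine of the panel with a lower mean in the libraries labelled knockdown. It stood at 149, 149 and 168 FPKM against 165, 172 and 191 FPKM. Knockdown 3 lay above control 1, so the groups overlapped, and replicate 3 was the highest library within each group. Mean levels were 155 ± 10.8 and 176 ± 13.6 FPKM (log2 -0.18, SE 0.07, adjusted p = 0.195), and edgeR gave -0.10 (adjusted p = 0.166). Csf1 did not pass in either.

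Ptgs2, which encodes the inducible cyclooxygenase COX-2 that makes the precursor of all prostaglandins, also rose. It stood at 219, 216 and 199 FPKM under the knockdown label, against 178, 175 and 162 FPKM under the control label. The groups were separated, and replicate 3 was the lowest library of each. Mean levels were 211 ± 10.4 and 172 ± 8.502 FPKM (SD, n = 3 each), a 1.23-fold difference (log2 0.30, SE 0.05, 95% interval 0.17 to 0.43, limma adjusted p = 0.0352). EdgeR on 7201 to 9494 fragments per library gave 0.31 (adjusted p = 0.000753). The limma call ended without knockdown 1 (adjusted p = 0.108), knockdown 2 (0.119), control 1 (0.0894), control 2 (0.102) or control 3 (0.0754), at log2 fold changes of 0.26 to 0.33, and also with no filter (0.0551), quantile normalization (0.0602) or no intensity trend (0.0999). Ptgs2 (ENSMUSG00000032487) lies on the plus strand of chromosome 1, from 150100031 to 150108234 (RefSeq, GRCm38).

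Replicate 3 was compared with the other libraries by edgeR, with group in the model and a shared replicate 3 term for both groups. The fit called 254 of 11563 tested genes. It does not test a difference within each group. The same comparison was not made for the other replicate numbers, so whether 254 calls are unusual was not tested. Among the panel, Ptgs2 was lower in replicate 3 (log2 -0.11, edgeR adjusted p = 0.0122) and Csf1 higher (log2 0.12, adjusted p = 0.0228). The other 7 tested members did not pass in that comparison. Without both replicate 3 libraries Il33 kept a log2 fold change of 0.33 (limma adjusted p = 0.0409) and Ptgs2 of 0.30 (adjusted p = 0.0447), so both calls stood within the remaining 4 libraries.

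Neither NF-kB inhibitor gene passed in limma. Nfkbia, encoding IkB-alpha, stood at 65.2, 66.6 and 65.2 FPKM under the knockdown label, against 62.4, 65.0 and 62.9 FPKM under the control label. The groups were separated by a narrow gap, with knockdown 1 and 3 just above control 2. The log2 fold change was 0.05 (SE 0.04, 95% interval -0.045 to 0.15, adjusted p = 0.503), and the upper end of that interval is below the lower end of the interval for Ptgs2 (0.17).

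Tnfaip3, encoding the ubiquitin-editing enzyme A20 that ends NF-kB signalling, gave different answers in the deposited measures. In FPKM it stood at 21.2, 18.0 and 23.2 against 20.2, 19.0 and 17.7, with overlapping groups (log2 0.13, SE 0.10, limma adjusted p = 0.507). The deposited counts, which are scaled to a near-common library total, were 730, 752 and 786 against 683, 623 and 643. Here every library labelled knockdown was above every control, and edgeR called the gene (log2 0.23, adjusted p = 0.0233), while DESeq2 did not (adjusted p = 0.0761). Knockdown 2 was the library in which the measures parted: it was the lowest of its group in FPKM and above all controls by count.

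The ratio of deposited count to FPKM shows where that happens. It is close to constant for a gene measured over 1 fixed transcript length, and it lay between 42.9 and 43.2 for Ptgs2, between 25.2 and 25.7 for Il33, between 14.8 and 15.1 for Nfkbia and between 9.39 and 9.70 for Il6. For Tnfaip3 it ran from 32.9 to 41.8, with the maximum in knockdown 2. For Nfkb1 it was 29.7, 30.7 and 32.9 in the libraries labelled knockdown and 28.7, 28.5 and 28.7 in those labelled control. For Relb it ran from 18.9 to 21.9, for Csf1 from 26.4 to 29.0 and for Lif from 36.3 to 40.6. Over 11548 genes with values above 0 in all libraries the highest ratio was at the median 1.07 times the lowest, and 43.0% of genes exceeded 1.1 times.

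**Figure D2:**
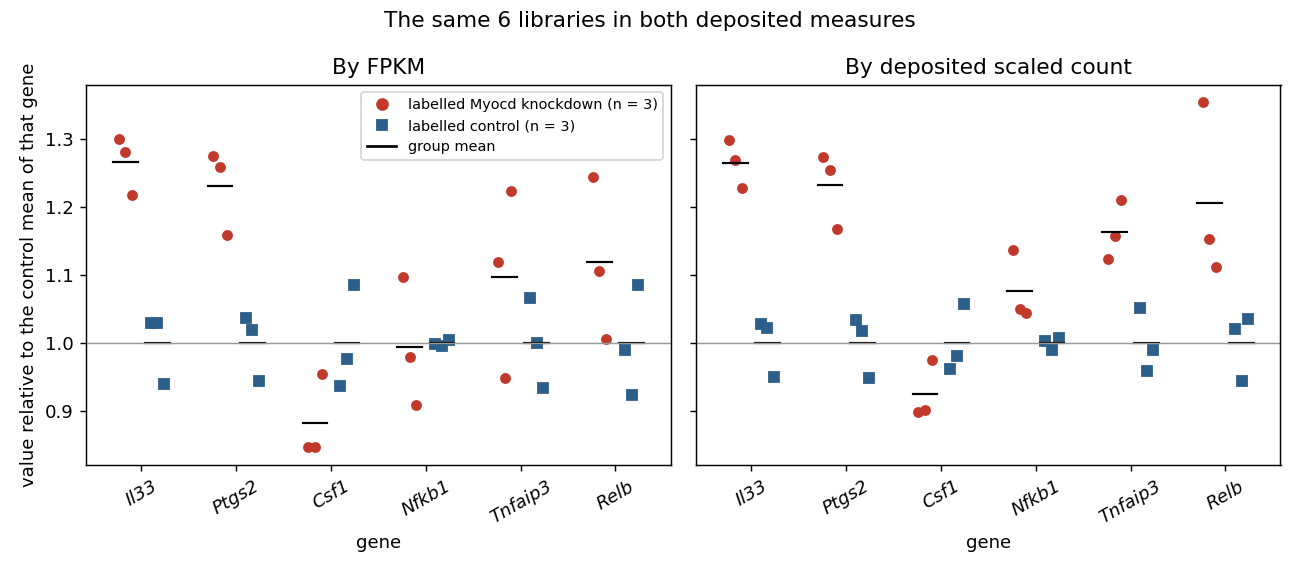
FPKM (left) and deposited scaled count (right) of 6 panel genes in each library, divided by the gene's own control mean, with a bar at each group mean. Il33 and Ptgs2 are above and Csf1 below the control mean in both panels, while for Nfkb1, Tnfaip3 and Relb the groups overlap in FPKM and separate in the counts.

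The subunit genes showed the same divergence. Nfkb1, encoding the p105 precursor of the p50 subunit, stood at 67.0, 59.8 and 55.5 FPKM under the knockdown label, against 61.0, 60.8 and 61.4 FPKM under the control label. The first group lay on both sides of the second, whose 3 libraries were nearly identical (log2 -0.012, SE 0.07, adjusted p = 0.942). By deposited count it was at 1989, 1837 and 1827 against 1755, 1731 and 1764, with no overlap (edgeR log2 0.12, adjusted p = 0.103). The sign of its difference therefore depends on the measure, and neither test called it.

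Relb, the partner subunit of the noncanonical pathway, stood at 9.05, 8.04 and 7.31 FPKM against 7.20, 6.72 and 7.90 FPKM. The groups overlapped because knockdown 3 was below control 3 (log2 0.16, SE 0.11, adjusted p = 0.444). By deposited count the values were 195, 166 and 160 against 147, 136 and 149, without overlap (edgeR log2 0.29, adjusted p = 0.118). By count, 7 of the 9 tested genes were higher in every library labelled knockdown, all but Lif and Csf1, beside 14.4% of all tested genes (31.2% separated in either direction).

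**Figure D3:**
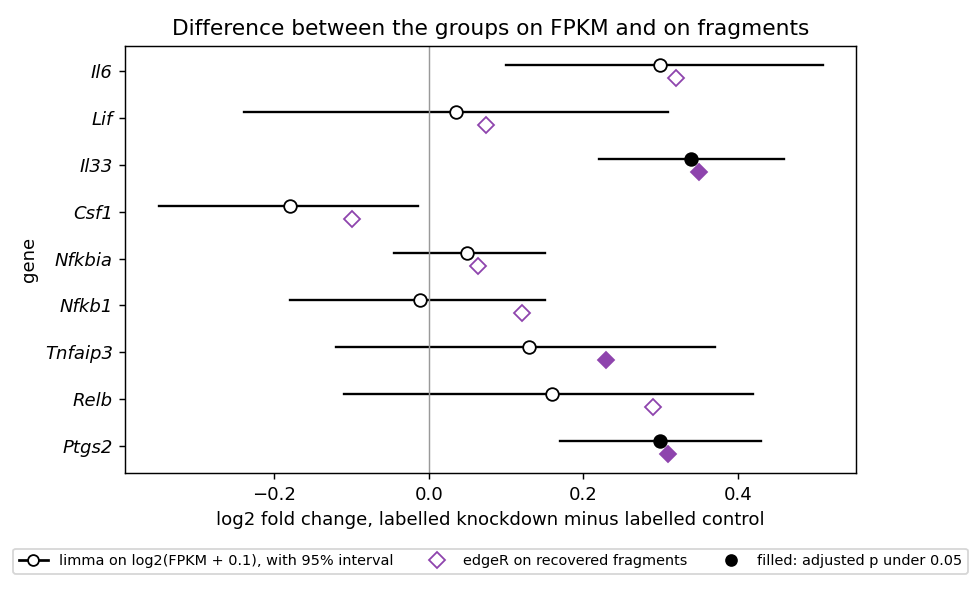
Log2 fold change of the 9 tested genes, labelled knockdown minus labelled control, from limma on FPKM (circles, bars for the 95% interval) and edgeR on fragments (diamonds), filled where the adjusted p is under 0.05. Il33 and Ptgs2 are filled in both and Tnfaip3 in edgeR alone.

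The wider signalling genes gave few calls. Lists of ligands, receptors, kinases, NF-kB regulators and prostaglandin genes held 121 genes besides the panel, of which 97 were tested. Limma called 1 of the 97, Ptges, upward, beside 3.44% of all genes (22 were at an unadjusted p under 0.05), and the median log2 fold change of the 97 was 0.028. Over all tested genes 2603 of 11612, or 22.4%, were at an unadjusted p under 0.05, the share against which this count and those of the single lists below stand. EdgeR called 6 of the 97, beside 9.95% of all genes: Csf2rb, Ltbr and Socs2 upward and Rela, Stat5a and Traf2 downward.

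The gp130 cytokine system was present but none of its tested genes passed. Among family ligands 5 of 9 were tested and 0 passed in limma (1 at an unadjusted p under 0.05) or edgeR; Clcf1, a ligand of the CNTF receptor, was at 14.7 ± 2.84 against 13.8 ± 0.715 FPKM and Cntf at 2.24 ± 0.780 against 1.54 ± 0.260. Osm, Il27 and Il31 were listed at 0 in every library. Among receptors 5 of 9 were tested and limma called 0 (0 at an unadjusted p under 0.05, 0 in edgeR). Il6st was at 52.9 ± 0.982 against 53.8 ± 2.15 FPKM (log2 -0.023, SE 0.05, adjusted p = 0.810). Il6ra, the specific receptor chain of Il6, was at 6.26 ± 0.0837 against 5.36 ± 0.319 FPKM (log2 0.22, adjusted p = 0.225). Lifr (3.36 against 3.23 FPKM), Il11ra1 (3.23 against 4.003) and Osmr (66.1 against 64.4) had overlapping groups.

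Downstream of the receptors limma called 0 of 16 Jak, Stat and feedback genes (7 at an unadjusted p under 0.05) and edgeR 2. Stat5a was at 6.32 ± 0.165 against 8.88 ± 1.24 FPKM (limma adjusted p = 0.0705, edgeR adjusted p = 0.0162). The kinase gene Jak1 was at 68.5 ± 2.43 against 57.4 ± 4.97 FPKM (limma adjusted p = 0.0916) and edgeR gave a log2 fold change of 0.051 (adjusted p = 0.413). The list's median log2 fold change was 0.018.

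None of the other NF-kB subunit genes was higher on average under the knockdown label. Rela, the main activating subunit p65, was at 18.4 ± 0.503 against 21.8 ± 1.19 FPKM (log2 -0.24, SE 0.06, limma adjusted p = 0.0878, edgeR adjusted p = 0.0328). Rel was at 5.27 ± 0.425 against 6.49 ± 0.327 FPKM (log2 -0.30, adjusted p = 0.155) and Nfkb2 at 26.3 ± 0.703 against 27.0 ± 0.575 FPKM (log2 -0.037, adjusted p = 0.711). Limma called 0 of the 5 subunit genes (2 at an unadjusted p under 0.05) and edgeR 1.

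Of 20 IkB and feedback genes limma called 0 (4 at an unadjusted p under 0.05) and edgeR 1, Tnfaip3. Bcl3, an atypical IkB protein that can activate transcription, was at 4.63 ± 1.49 against 2.17 ± 0.364 FPKM (log2 1.02, SE 0.26, adjusted p = 0.0814; edgeR log2 0.44, adjusted p = 0.299). Tnip1, the A20-binding adaptor, was at 30.6 ± 4.48 against 23.6 ± 1.505 FPKM (adjusted p = 0.108), and the deubiquitinase gene Otud7b at 18.8 ± 0.891 against 22.6 ± 1.42 (adjusted p = 0.0909). The count to FPKM ratio ran from 8.67 to 15.6 for Bcl3 and from 56.05 to 70.1 for Otud7b, and edgeR gave a log2 fold change of -0.026 for Otud7b.

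Upstream, limma called 0 of 22 tested IKK and adaptor genes (4 at an unadjusted p under 0.05) and edgeR 1, Traf2 (7.80 ± 0.401 against 9.82 ± 0.551 FPKM, edgeR adjusted p = 0.0448). The kinase genes Chuk (28.5 against 26.9 FPKM), Ikbkb (13.01 against 12.5) and Ikbkg (28.1 against 30.7) had overlapping groups. Irak2 (7.64 against 6.19 FPKM, adjusted p = 0.138) and Traf6 (8.40 against 9.75, adjusted p = 0.177) were among the smallest p. Of 11 tested receptors that feed NF-kB limma called 0 (2 at an unadjusted p under 0.05). Ltbr, the lymphotoxin beta receptor of the noncanonical pathway, was at 42.0 ± 1.54 against 35.4 ± 1.96 FPKM (limma adjusted p = 0.068, edgeR adjusted p = 0.00846). Il1rap, the shared chain of the IL-1 and IL-33 receptors, was at 7.69 ± 0.960 against 6.03 ± 0.0350 FPKM (adjusted p = 0.142) and Tlr6 at 3.07 against 2.42.

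The receptors for the most abundant cytokines of the panel were low. Il1rl1, the receptor of IL-33, was at 0.751 ± 0.410 against 0.921 ± 0.969 FPKM (adjusted p = 0.965). Csf1r, the receptor of the Csf1 product, was read by 0 fragments in every library, where 0 allows up to 3 fragments. Of 3 tested genes among the colony-stimulating factors limma called 0 (2 at an unadjusted p under 0.05): besides Csf1 these were Il34, the other ligand of that receptor (4.73 ± 1.099 against 5.68 ± 1.88 FPKM), and Csf2rb (3.53 ± 0.115 against 2.50 ± 0.333 FPKM, limma adjusted p = 0.111, edgeR adjusted p = 0.0186). In the IL-1 family list Il33 was the 1 of 7 tested genes that passed. Next were Il1rn (4.16 ± 1.79 against 6.85 ± 2.62 FPKM) and Il18bp (1.79 against 2.33). The lower level of Il1rn was not seen in fragments, where edgeR gave a log2 fold change of 0.084 (adjusted p = 0.843). Its count to FPKM ratio ran from 5.33 to 15.02.

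**Figure D4:**
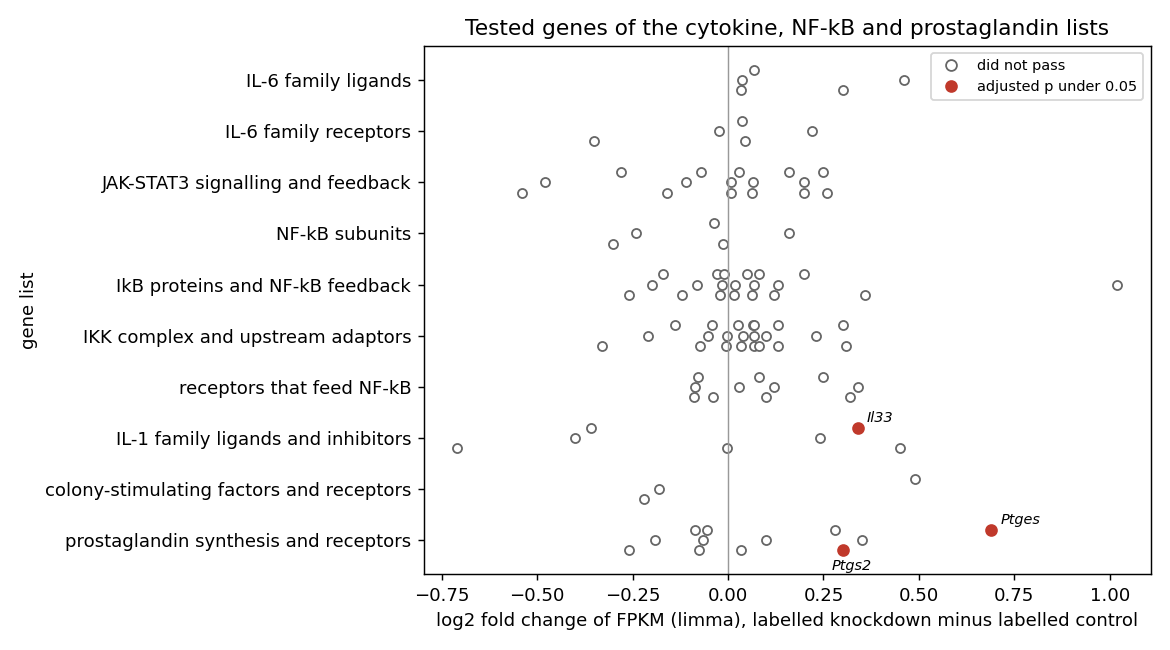
Log2 fold change on FPKM of every tested gene in each list (vertical offsets only separate points), labelled knockdown minus labelled control, filled where the limma adjusted p is under 0.05. Il33, Ptgs2 and Ptges at 0.30 to 0.69 are the filled points.

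Of 12 tested prostaglandin genes 2 rose in limma, Ptgs2 and Ptges. Ptges, the inducible prostaglandin E synthase that acts after COX-2, stood at 7.52, 6.80 and 7.49 FPKM under the knockdown label, against 4.32, 4.04 and 5.05 FPKM under the control label (log2 0.69, SE 0.12, limma adjusted p = 0.0288). The deposited counts did not show this separation, at 109, 130.3 and 152 against 118, 109 and 120.4, and edgeR gave 0.17 (adjusted p = 0.447). Its count to FPKM ratio was 14.5 to 20.3 in the first group and 23.8 to 27.4 in the second, so its call holds for FPKM and not for fragments. On FPKM it ended without both replicate 3 libraries (adjusted p = 0.0695) and without any one library (0.0728 to 0.105) except control 3 (0.0395). Ptges3, a constitutive synthase gene, was at 133 ± 7.59 against 151 ± 6.57 FPKM, without overlap in FPKM or counts. Limma and edgeR did not call it (adjusted p = 0.113 and 0.0606), while DESeq2 called it downward (log2 -0.15, adjusted p = 0.0473). The PGE2 receptors Ptger2 (1.42 against 1.32 FPKM) and Ptger4 (4.49 against 4.69) were low and overlapped.

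The other members lie, in RefSeq's GRCm38 coordinates, as follows. On the plus strand is Lif (ENSMUSG00000034394) at chr11:4257568-4272514. On the minus strand are Il11 (ENSMUSG00000004371) at chr7:4772373-4782907, Csf1 (ENSMUSG00000014599) at chr3:107741048-107760469, Nfkbia (ENSMUSG00000021025) at chr12:55489409-55492647, Nfkb1 (ENSMUSG00000028163) at chr3:135584655-135691969, Tnfaip3 (ENSMUSG00000019850) at chr10:19000910-19015410 and Relb (ENSMUSG00000002983) at chr7:19606217-19629438.

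Transcripts from the neighbouring noncoding genes were sparse. The lncRNA table pairs 5 transcripts with Il6, Relb or Ptgs2, and 2 were expressed highly enough to test, beside 4.26% of 4955 lncRNA transcripts called. ENSMUST00000181460 of 7530420F21Rik, which lies head to head with Ptgs2 on the minus strand (chr1:150074873-150099874), was at 0.610, 0.221 and 0.201 against 0.363, 0.440 and 0.1002 FPKM, with overlapping groups (log2 0.15, SE 0.58, adjusted p = 0.927). It did not share the separation of Ptgs2 in these libraries, though it was read by at most 10.8 fragments. The transcript uc012fbf.1, which shares exons and strand with Relb, was at 0.639, 1.99 and 2.30 against 1.97, 1.75 and 1.304 FPKM (log2 -0.18, SE 0.49, adjusted p = 0.893). It was lowest in knockdown 1, the library with the highest Relb. Whether fragments of the shared exons were divided between the transcript and Relb was not tested. The Il6 antisense transcript BY714245 was listed at 0 in every library.

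The profile of Il6 across the 6 libraries was most like that of Cpped1, Zfp160 and Elovl1, chosen by the root-mean-square difference of centred log2 values (0.0186, 0.0249 and 0.0409, where the profile of Il6 itself has a root-mean-square size of 0.184). For Nfkbia the nearest were Aplp2, Heatr5b and Usp4 (0.0083, 0.0123 and 0.0135, against a size of 0.0324). These are the closest of 11612 genes over 6 libraries and describe likeness only. Cpped1 was at 22.3, 24.2 and 25.9 FPKM against 19.2, 21.4 and 18.2, in the same order of libraries as Il6.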

How the data were processed

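RNA was measured in 6 libraries of mouse aortic VSMCs, 3 labelled Myocd knockdown and 3 labelled control. Per the submitters' processing notes, cutadapt, HISAT2 2.0.4, Cufflinks and Cuffdiff 2.2.1 were used, with builds mm10 and mm9 named without roles. For strand use and annotation release, not given in the sources used here, nothing was assumed. Deposited by the authors were FPKM values and, per library, estimated counts; these expected counts are fragments multiplied by a library constant (after division 90.07% to 90.37% of mRNA values lay within 0.01 of a whole number). Table starts plus 1 equal the RefSeq GRCm38 start for 6275 genes, against 472 as given.

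Rows of 79 repeated symbols were summed. The main test was limma 3.58.1 with trend (R 4.3.3) on log2(FPKM + 0.1), which understates the change of low genes, over all genes with at least 0.5 FPKM (lncRNAs 0.1) in 3 libraries, Benjamini-Hochberg adjusted, threshold 0.05, two-sided. EdgeR 4.0.16 (quasi-likelihood, TMM) and DESeq2 1.42.0 ran on rounded fragments as alternatives. Log2 fold changes are labelled knockdown minus labelled control. Scripts were tested on simulated data. Limits from fragments cover counting error only. The named genes are the panel, Myocd, genes that passed or had the 3 smallest p in each list, and direct partners; 1 listed gene is not reported here and is left out of the list counts. The members and lists were chosen with earlier results of these data known.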

Additional observations from a re-analysis of the deposited data

How the results depend on the processing

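Il33 and Ptgs2 were positive in all 22 alternatives run (log2 0.30 to 0.37 and 0.26 to 0.34). Il33 lost its limma call in 5 and Ptgs2 in 8. Of the panel, 1 gene passed with no filter or with quantile normalization, 0 without the intensity trend, 4 with edgeR without a filter (Il6 joined, adjusted p = 0.0461), and 0 to 2 with 1 library left out. The signalling genes that passed (1 in the main test) numbered 3 with library weights or DESeq2, 6 with edgeR under TMM or RLE scaling, 5 without its filter, 0 to 1 with 1 library left out, and 0 without replicate 3. Over all genes, 144 passed without the trend, 624 with library weights, 44 to 178 with 1 library left out, 76 without replicate 3, 1150 with edgeR, 1153 with RLE scaling, 1168 without its filter and 717 with DESeq2. Median centring moved the share of calls that were higher from 53.2% to 63.9%, with 2 panel calls as before. Fits with fewer libraries have fewer degrees of freedom, but the number of calls also varied among fits of equal size. Without knockdown 3 or control 3, 178 and 165 genes passed, against 44 to 60 without any other single library. The cause was not tested for any setting.

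Same-numbered libraries deviated together with correlations of 0.0375, -0.00394 and 0.0999. The last, between the replicate 3 libraries, was the highest of all knockdown and control combinations. Knockdown 1 was most like control 2 (0.0588) and knockdown 2 most like control 1 (0.0314). The numbers were not taken as pairs in the main test. With a replicate block limma called 243 genes, 2 of the panel and 0 other signalling genes (Ptges had an adjusted p of 0.0522), and edgeR 1715, 5 and 14, Il6 (log2 0.32) and Csf1 (log2 -0.10) among the 5.

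With 1 library left out Lif ran from -0.051 to 0.14, Nfkb1 from -0.085 to 0.052 and Tnfaip3 from 0.045 to 0.23. The sign of Lif turned with library weights (-0.036), without knockdown 3 (-0.04), control 3 (-0.051) or replicate 3 (-0.13). That of Nfkb1 turned with median centring (0.012), library weights (0.018), without knockdown 3 (0.052) or replicate 3 (0.055), and in edgeR with TMM, RLE, no filter or the replicate block and in DESeq2 (0.12 each). Tnfaip3 turned to -0.0035 without replicate 3. None of these 3 passed on FPKM. Limma called 0 of the 2 tested lncRNA transcripts in every setting run, with 1 of them left to test at a filter of 0.5 FPKM. Il11 was limited by depth.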
